A study of Mus musculus with 4 samples.

Results

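The genes described here are members of the Hedgehog signalling pathway in intestinal DNA of old and young mice. The list held 9 genes: the ligand genes Shh, Ihh and Dhh, the receptor gene Ptch1, the signal transducer gene Smo, the transcription factor genes Gli1, Gli2 and Gli3, and the inhibitor gene Hhip. A probe was counted as a member when its gene name in the array files, without any appended distance, was a listed gene. Probes were found for 8 of the 9 genes, 37 in all out of 83122, and they formed 8 regions out of 15353 measured regions. No probe used here carried the name Gli2.

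The samples were genomic DNA of intestine from mice of the inbred strain C57BL/6, aged 32 months and 3 months, in a study of how DNA methylation differs with age. Old and young genomic DNA were hybridised together on 2 custom Agilent arrays, the first for chromosomes 1 to 8 and the second for the remaining chromosomes. The 32-month DNA carried the dye Cy5 and the 3-month DNA the dye Cy3 on both arrays, and no array had the dyes exchanged. An effect of the dye on a probe therefore cannot be told apart from a difference between the ages. Each array thus compared a single old with a single young sample, so no difference below can be set against a spread between animals, and none was tested. The sources used here give neither the number nor the sex of the animals, and no step that selects DNA by its methylation, so values are given as signal. The abbreviation RMCA stands in the scan header of the first array without explanation. In bulk intestinal DNA, a change in the mix of cells and a change within cells cannot be told apart.

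Hedgehog ligands are secreted, lipid-modified proteins that bind the receptor Patched. Without ligand, Patched holds the membrane protein Smoothened inactive; when ligand binds, Smoothened acts through the primary cilium and the Gli proteins turn target genes on. In the gut, ligand comes mainly from the epithelium, with Ihh as the chief ligand of the adult intestine, and the responding cells are mesenchymal. Ptch1, Gli1 and Hhip are themselves transcriptional targets of the pathway.

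Of the 37 probes, 28 were well above background at both ages and 31 at 1 age or more; these 31 are called usable. On the arrays as a whole, between 70.1% and 72.5% of probes were well above background in a channel, and no probe was saturated. Each probe's ratio is the log2 of its 32-month over its 3-month signal after the median of its array was subtracted, and values above 0 mean more signal at 32 months. The value of a region is the median over its usable probes, and each SD is a spread over probes and not over animals. A region was called higher if its median reached 1 and no usable probe lay at or below 0, and lower by the same rule with the signs turned. By this rule 2.01% of all 15353 regions were called higher and 0.632% lower.

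Among the 8 Hedgehog regions 1 was called higher, Ihh, and none was called lower. The plot of probe signals shows the measured brightness of all 37 probes, and the profiles along each region show the ratios. Large differences were found at 4 probes, a pair of neighbours at Ihh and a pair of neighbours at Gli3, while the other 27 usable probes had log2 ratios between -0.82 and 0.92.

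**Figure D1:**
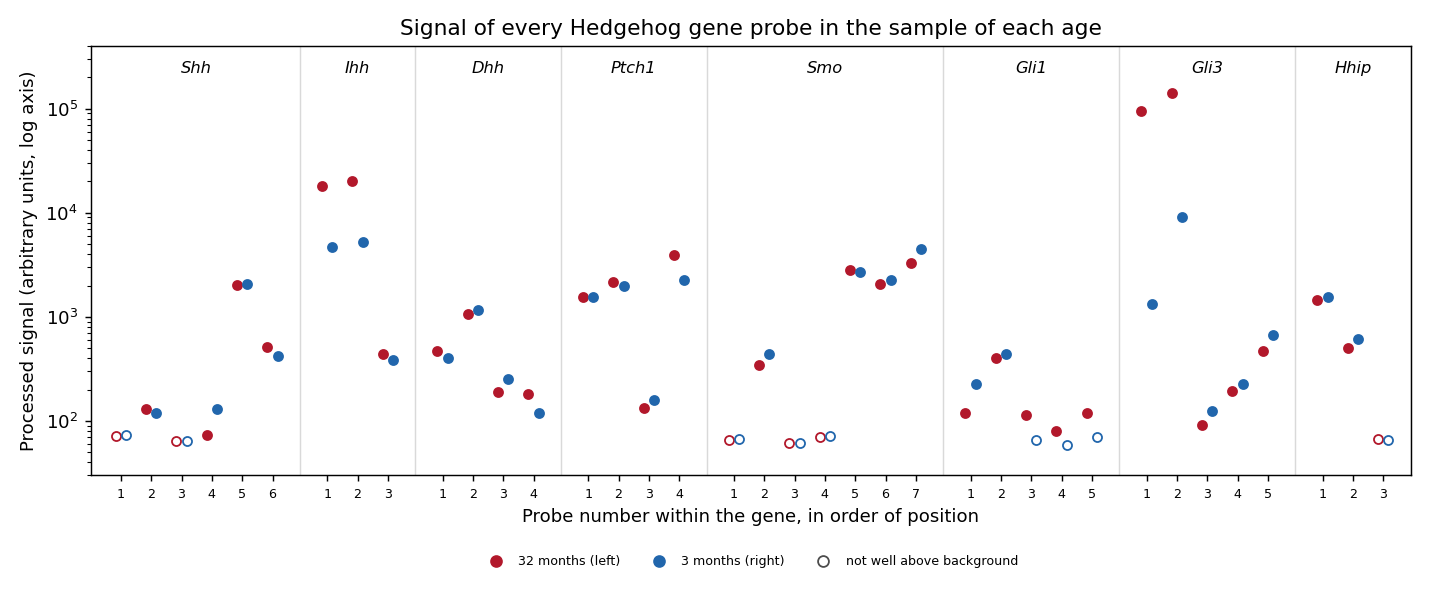
Processed signal (arbitrary units, log axis) of each Hedgehog gene probe at 32 months (red, left of each pair) and at 3 months (blue, right), with open symbols for signals not well above background. Probes 1 and 2 of Ihh and of Gli3 are far brighter at 32 months, and the paired points of most other probes lie close together.

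The probes that carry these differences are printed from the array files, 5′ to 3′, with CpG dinucleotides in capitals, since the cytosine of a CpG is the usual site of DNA methylation in mammals. Positions are those in the files, whose genome build is not given in the sources used here, and probes are numbered by increasing position. The Ihh probes lie on chromosome 1, and all 3 are annotated as promoter by the array design. They begin at positions 74885281, 74885469 and 74885726.
Ihh probe 1: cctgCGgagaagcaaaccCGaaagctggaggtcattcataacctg
Ihh probe 2: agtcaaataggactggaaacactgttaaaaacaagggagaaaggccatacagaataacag
Ihh probe 3: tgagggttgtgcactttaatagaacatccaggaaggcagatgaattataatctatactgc

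The Gli3 probes lie on chromosome 13 and begin at positions 15253851, 15254082, 15254286, 15254472 and 15254699. The design annotates the first 4 as promoter and the last as inside the gene.
Gli3 probe 1: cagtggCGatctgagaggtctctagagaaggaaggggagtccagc
Gli3 probe 2: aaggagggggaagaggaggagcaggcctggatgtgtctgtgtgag
Gli3 probe 3: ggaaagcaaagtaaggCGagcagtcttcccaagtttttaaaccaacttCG
Gli3 probe 4: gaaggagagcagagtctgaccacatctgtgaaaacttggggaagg
Gli3 probe 5: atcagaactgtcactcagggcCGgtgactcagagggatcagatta

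Ihh, the main ligand of the adult gut epithelium, was brighter at 32 months at the first 2 of its 3 probes, in a region of 505 bp that was called higher. Probe 1 had a signal of 18200 at 32 months and 4700 at 3 months. Probe 2 had 20100 at 32 months and 5250 at 3 months. The log2 ratios were 1.95 and 1.93, differences of 3.86-fold and 3.82-fold, and 1.68% and 1.7% of usable probes on the array reached these values. Probe 3 had 444 at 32 months and 385 at 3 months, a log2 ratio of 0.20. The region median was 1.93 ± 1.00 (SD over 3 probes), a 3.82-fold difference, and 0.944% of all regions had a median as high. Probes 1 and 2, which are 143 bases apart, thus gave nearly the same ratio. Probe 1 holds 2 CpGs and probe 2 none. Probe 3, separated from probe 2 by 197 bases, lay just above 0. With probe 1 or probe 2 left out, the median of the region was 1.07 or 1.08, and with probe 3 left out it was 1.94. In each of these cases the region was still called higher. Without probe 1 or probe 2 that call rested on 1 bright probe and probe 3, with an SD of 1.22 or 1.24.

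Shh, the ligand that patterns the embryonic gut tube, showed no difference by the rule in its 6 probes on chromosome 5 from position 28797815. Probes 1 and 3 were not well above background at either age. Probe 2 had 131 at 32 months and 119 at 3 months, and probe 6 had 516 at 32 months and 422 at 3 months. Probe 5, the brightest in both samples, had 2030 at 32 months and 2050 at 3 months. The largest difference was at probe 4, with 73.3 at 32 months and 129 at 3 months, a log2 ratio of -0.82. Its neighbour 51 bases away was probe 5, at -0.02. The region median was 0.06 ± 0.49 over 4 usable probes.

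Dhh, the ligand of Schwann cells and the testis, had 4 usable probes on chromosome 15 from position 98726332. Signals were 472 at 32 months and 404 at 3 months for probe 1, and 1070 at 32 months and 1160 at 3 months for probe 2, both inside the gene. The promoter probes had 188 at 32 months and 252 at 3 months for probe 3, and 180 at 32 months and 118 at 3 months for probe 4. Probe 4 had the highest log2 ratio of the gene, 0.75, and probe 3 the lowest, -0.28, so the neighbouring promoter probes lay on opposite sides of 0. The region median was 0.19 ± 0.44.

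Ptch1, which encodes the Hedgehog receptor, had 4 usable probes over 1305 bp of chromosome 13 from position 63574457. Probe 4, at the far end, had 3900 at 32 months and 2280 at 3 months, a log2 ratio of 0.91 that 8.98% of usable probes on the array reached. Probe 3, only 64 bases from it, had 134 at 32 months and 158 at 3 months, a log2 ratio of -0.10. Probe 2, which holds 4 CpGs, the most of any Hedgehog probe, had 2160 at 32 months and 1970 at 3 months, and probe 1 had 1550 at 32 months and 1560 at 3 months. The region was not called, with a median of 0.20 ± 0.43. After normexp background correction the median was 0.77, still without a call.

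Smo, the gene of the membrane protein that passes the signal into the cell, had a region median of -0.25 ± 0.22 over 4 usable probes, the lowest of the set in the main setting. Its 7 probes lie on chromosome 6 from position 29684495. Probes 1, 3 and 4, all annotated as promoter, were not well above background at either age. Promoter probe 2 had 345 at 32 months and 436 at 3 months. The 3 probes inside the gene had 2820, 2050 and 3310 at 32 months, against 2710, 2280 and 4500 at 3 months. Of these, probe 7 had the lowest log2 ratio, -0.45, and 90.3% of usable probes on the array had a ratio at or above it. After normexp correction the median of the region was 0.12, on the other side of 0.

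Hhip encodes a surface protein that binds Hedgehog ligands and restrains the pathway. On chromosome 8 from position 82954420, its probe 1 had 1440 at 32 months and 1550 at 3 months, and its probe 2 had 499 at 32 months and 616 at 3 months. Probe 3 was not well above background at either age. The median over the 2 usable probes was -0.21 ± 0.14, and normexp correction gave 0.12. None of the Hhip probes contains a CpG.

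Gli3, which encodes the Gli protein that acts mainly as a repressor, held the most extreme values of the set within a region that was not called. Probe 1 had a signal of 93900 at 32 months and 1320 at 3 months. Probe 2 had 142000 at 32 months and 9080 at 3 months. Log2 ratios were 6.29 for probe 1 and 4.11 for probe 2, differences of 78.4-fold and 17.2-fold. Of 31703 usable probes on that array, 20 reached the ratio of probe 1 and 141 that of probe 2, which is 0.0631% and 0.445% of them. The remaining 3 probes went the other way by small amounts. Probe 3 had 92.1 at 32 months and 125 at 3 months, probe 4 had 195 at 32 months and 228 at 3 months, and probe 5 had 466 at 32 months and 674 at 3 months. Their log2 ratios were -0.30, -0.09 and -0.39. All 5 probes were well above background at both ages.

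The median of the Gli3 region was therefore -0.09, with an SD of 3.09 over probes and a mean of 1.92. Between probes 2 and 3, which are separated by 159 bases, the log2 ratio dropped by 4.41. The sequence of probe 4 lies whole in the RefSeq promoter window of Gli3 (GRCm38.p6), beginning at position -138 from the annotated start site. By the files' distances from probe 4, the bright probes 1 and 2 begin at -759 and -528, probe 3 at -324 and probe 5 at 89. Probe 1 had a log2 ratio of 6.23 after normexp correction and 6.15 with uncentred ratios. Probe 2 had 4.73 after normexp correction and 3.97 with uncentred ratios.

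Gli1, a transcriptional activator and a common readout of pathway activity, had a region median of 0.58 ± 0.72 over 5 probes on chromosome 10 from position 126744311. Only 2 of these probes were well above background at 3 months, against all 5 at 32 months. Probes 3, 4 and 5 had 113, 79.5 and 119 at 32 months, against 65.8, 58.4 and 70.6 at 3 months, where they were not well above background. In centred ratios the signal of these probes at 32 months was 1.89-fold, 1.5-fold and 1.86-fold that at 3 months. These values set the old signal against a young signal that was not well above background, so they are not lower bounds. They include the centring of the array. Without centring the log2 ratios of probes 3, 4 and 5 were 0.78, 0.44 and 0.75. Probe 1, inside the gene, had 118 at 32 months and 224 at 3 months, a log2 ratio of -0.79, and probe 2 had 406 at 32 months and 439 at 3 months. Restricted to the 2 probes well above background at both ages, the median was -0.38, so the sign of the Gli1 region rests on probes dim at 3 months. After normexp correction the log2 ratios of probes 3, 4 and 5 were 0.19, -0.18 and 0.05, so the differences hold for the processed signals and not under that correction.

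**Figure D2:**
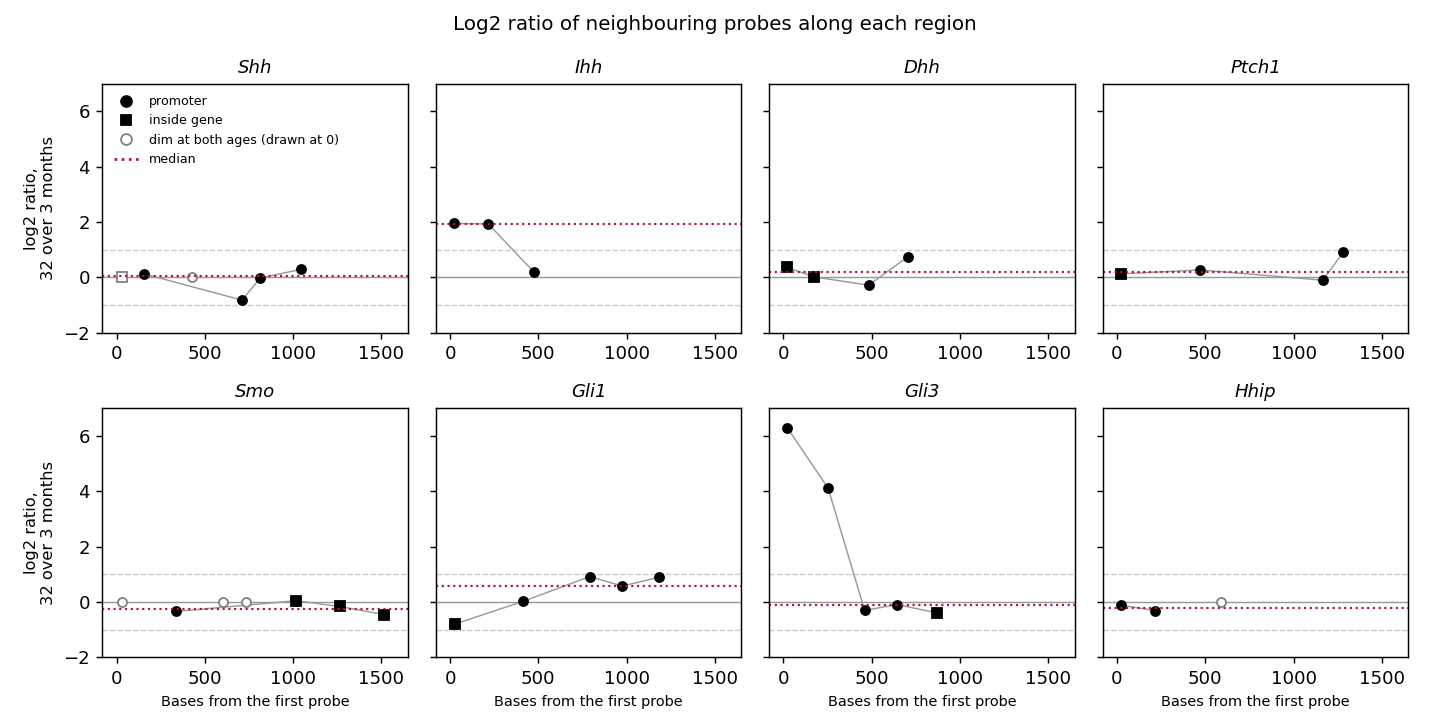
Log2 ratio of 32-month over 3-month signal (vertical axis) of each probe against its distance in bases from the first probe of the region, with circles for promoter probes, squares for probes inside the gene, open symbols at 0 for probes dim at both ages, the region median dotted and the thresholds of 1 and -1 dashed. Gli3 drops from 4.11 at probe 2 to -0.30 at probe 3, and Ihh from 1.93 at probe 2 to 0.20 at probe 3.

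Ordered by region median, the genes ran from Ihh (1.93) through Gli1 (0.58), Ptch1 (0.20), Dhh (0.19), Shh (0.06), Gli3 (-0.09) and Hhip (-0.21) to Smo (-0.25). The place of Gli1 depends on probes dim at 3 months: with probes well above background at both ages its median of -0.38 was the lowest, below Smo at -0.25, and after normexp correction it was 0.05, against 0.12 for Smo. Other places moved as well. With means over probes Gli3 came first at 1.92, above Ihh at 1.36. After normexp correction Ptch1, at 0.77, came next after Ihh at 2.12. The places of Ptch1, Dhh and Shh depended on the centring of each array, since uncentred they had 0.06, 0.05 and 0.06. In the main setting Ihh stood above Gli1 by more than the SD over the probes of either region. Every other pair of neighbours in this order differed by less than the larger of their SDs over probes. The median of the 8 values was 0.12, against 0.01 over all measured regions. The Ihh call was kept under all settings listed in the closing section, with medians between 1.07 and 2.12. The other probe filters and the 500 bp gap left the same 3 Ihh probes and could not change its median. A lower threshold could not remove the call.

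Gli3 was examined by a further description, chosen after its values were seen. A region was counted when 2 neighbouring usable probes each had a log2 ratio of at least 3, which held for 0.664% of all regions and, among the Hedgehog regions, for Gli3. At a log2 ratio of at least 1 the same description held for 4.1% of all regions and for Ihh and Gli3 among the 8. Over single probes, 2 of the 31 usable Hedgehog probes, both of Gli3, had a ratio of at least 3, against 0.828% of all usable probes. A ratio of at least 1 was found at 4 of the 31 usable Hedgehog probes, against 6.35% of all usable probes, and a ratio of at most -1 at none, against 3.35%. The 4 probes form 2 pairs of neighbours and are not independent.

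All 4 were promoter probes by the design's annotation. Of the 23 usable promoter probes of Hedgehog genes 17.4% thus had a ratio of at least 1, against 6.12% of all usable promoter probes on the arrays. None of the 8 usable probes inside Hedgehog genes did so, and their ratios lay between -0.79 and 0.36, with 6.84% of all usable probes inside genes reaching 1. With only 8 probes inside genes, and the 4 promoter probes not independent, these shares cannot show a difference between the 2 annotations. The 4 probes hold 2, 0, 1 and 0 CpGs.

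RefSeq promoter windows (GRCm38.p6), which run from 250 bases before to 50 bases after an annotated start site, were found for 7 of the 9 genes, Gli2 included. They were searched on both strands for CG, for CCCGGG, the site of the enzymes SmaI and XmaI, and for GACCACCCA with its reverse complement TGGGTGGTC, a binding sequence of Gli proteins. Enzymes that cut CCCGGG are used in assays that amplify methylated CpG islands; whether they were used here is not stated. All 7 windows hold CG, as do 94.6% of 32851 windows. CCCGGG was found in 2 of the 7, once in Ihh and at 2 places in Dhh, and in 13.5% of all windows. The Ihh site begins 10 bases after the start site. GACCACCCA was found in none of the 7 and in 0.253% of all windows. No Hedgehog probe sequence itself holds CCCGGG.

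Ihh and Smo had the highest and the lowest region median in the main setting, and the Gli3 window holds one of its probes. Their 250 bases before the start site are given 5′ to 3′ on the gene's strand, with CpGs in capitals. The windows lie at chr1:74951623-74951922 (minus strand), chr6:29735247-29735546 (plus strand) and chr13:15463473-15463772 (plus strand) in GRCm38.p6.
Ihh: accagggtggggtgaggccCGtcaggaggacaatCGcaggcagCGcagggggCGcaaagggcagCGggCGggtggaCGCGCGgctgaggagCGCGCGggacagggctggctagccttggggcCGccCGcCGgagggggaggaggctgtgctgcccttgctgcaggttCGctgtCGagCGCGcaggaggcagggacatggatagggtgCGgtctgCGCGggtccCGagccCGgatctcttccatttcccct
Smo: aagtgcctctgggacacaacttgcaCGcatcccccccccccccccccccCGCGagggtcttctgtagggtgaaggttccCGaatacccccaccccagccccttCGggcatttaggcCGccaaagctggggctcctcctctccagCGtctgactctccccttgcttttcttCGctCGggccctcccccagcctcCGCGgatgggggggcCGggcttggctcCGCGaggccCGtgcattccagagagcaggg
Gli3: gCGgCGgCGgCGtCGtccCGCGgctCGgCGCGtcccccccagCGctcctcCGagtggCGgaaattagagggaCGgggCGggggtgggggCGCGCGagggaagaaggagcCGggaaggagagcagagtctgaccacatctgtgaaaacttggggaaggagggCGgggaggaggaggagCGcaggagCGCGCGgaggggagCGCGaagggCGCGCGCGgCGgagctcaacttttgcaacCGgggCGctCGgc

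The whole windows of Ihh, Smo and Gli3 contain 30, 17 and 39 CpGs, against a median of 7 over all windows. Ptch1 has 47, and 1.44% of windows have as many. Probe 5 of Smo spans the start site, from position -16 to 28, and had a log2 ratio of 0.05. The bright Ihh and Gli3 probes are not in these windows.

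A wider list of 50 genes that act with the pathway was read in the same way. Of these, 43 had a measured region, and 4 genes were called higher and none lower, against 2.14% and 0.673% of all gene names on the arrays. The 4 genes rest on 3 regions, since Evc and Evc2 are divergent neighbours that share one. The list was chosen with earlier results of these data known, so these counts cannot show an excess over the arrays. The median over the 43 genes was 0.12 and that over the 47 measured regions was 0.07.

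Of the genes for ligand release and lipid modification, 1 of 6 measured was called higher, against 2.14% of all gene names. Scube1 belongs to a family of secreted proteins of which Scube2 helps to release Hedgehog from cells. Its 3 probes on chromosome 15 had 104000, 61400 and 81000 at 32 months, against 16400, 7610 and 10400 at 3 months. The log2 ratios lay between 2.80 and 3.15 (SD 0.19 over the 3 probes), and the median corresponds to an 8.58-fold difference. Disp2, related to the transporter Dispatched, had a median of -0.36 ± 0.24 over 6 probes. For co-receptors and surface binding proteins, none of 7 measured genes was called.

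Gpc4, a glypican gene on the X chromosome, had the lowest uncalled median of the list, -0.89 ± 2.95 over 7 probes. Its probes 1, 2 and 3 had 56400, 6330 and 1580 at 32 months, against 603000, 228000 and 246000 at 3 months. The largest of these differences, at probe 3, was a log2 ratio of -7.14, while probes 4, 5 and 6 lay between 0.02 and 0.32. Probe 7 had 90.4 at 32 months and 185 at 3 months, and its log2 ratio of -0.89 is the region median. On the X chromosome 3.94% of regions were called lower, against 0.519% on autosomes, and the sex of the animals is not stated; the part of this in the Gpc4 values was not tested.

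In the cytoplasm and cilium group 2 of 16 measured genes were called higher, both through a single shared region, against 2.14% of all gene names. Evc and Evc2 encode partners at the base of the cilium that relay the signal from Smoothened. Their shared region on chromosome 5 had 8 probes, each brighter at 32 months, with signals between 4290 and 8180 at 32 months, against between 802 and 2930 at 3 months. The median was 2.43 ± 0.66, and the ratios ran from 0.85 to 2.87. A second Evc2 region, beside it, had probes with 32500 and 7000 at 32 months, against 30000 and 13900 at 3 months, and a median of -0.44 ± 0.78. Stk36, the mammalian relative of the fly kinase Fused, had -0.55 ± 0.50 over 5 probes, all below 0 and without a call.

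Targets and partners in the gut mesenchyme had 1 of 14 measured genes called higher, against 2.14% of all gene names. Foxf2, a forkhead factor gene induced by Hedgehog in the gut mesenchyme, had 4 probes with 2940, 33600, 48000 and 18500 at 32 months, against 559, 9340, 10500 and 6050 at 3 months. The median was 2.16 ± 0.35. Bmp4, a mesenchymal ligand gene downstream of Hedgehog, had 2 regions that differed. The first had a median of -0.01 ± 0.36 over 6 probes. In the second, 4 neighbouring probes had 117000, 34700, 1160 and 533 at 32 months, against 14900, 3640, 254 and 71.2 at 3 months, the last not well above background. The median there was 2.69 ± 1.70, and another probe at -0.51 kept the region from being called.

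Barx1, a homeobox gene of stomach mesenchyme, had 1.10 ± 1.24 over 5 probes, and Zic1, of a zinc finger family related to Gli, had 1.16 ± 1.86 over 3 probes of a region named for Zic1 and Zic4. Neither was called, since a probe lay below 0 in each, at -0.20 and -0.18. The highest probe of that Zic1 region, at 3.50, had 703 at 32 months and 68.5 at 3 months. Its signal at 3 months was not well above background. Another region named for Zic1 and Zic4 had a median of -0.15 ± 0.02 over 3 probes, all below 0. A probe with a log2 ratio of at least 1 occurred in 15 of the 47 regions (31.9%), against 16.6% of all measured regions. Of the 47, 3 were called higher, against 2.01% of all measured regions. Ratios of at most -1 occurred at Hhat (-2.79 and -2.61), Stk36 (-1.51) and, on the X chromosome, Gpc3 (-2.99) and Gpc4 (lowest -7.14). Hhat and Gpc3 are named here for these ratios. The share of all regions with such a probe was not counted.

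**Figure D3:**
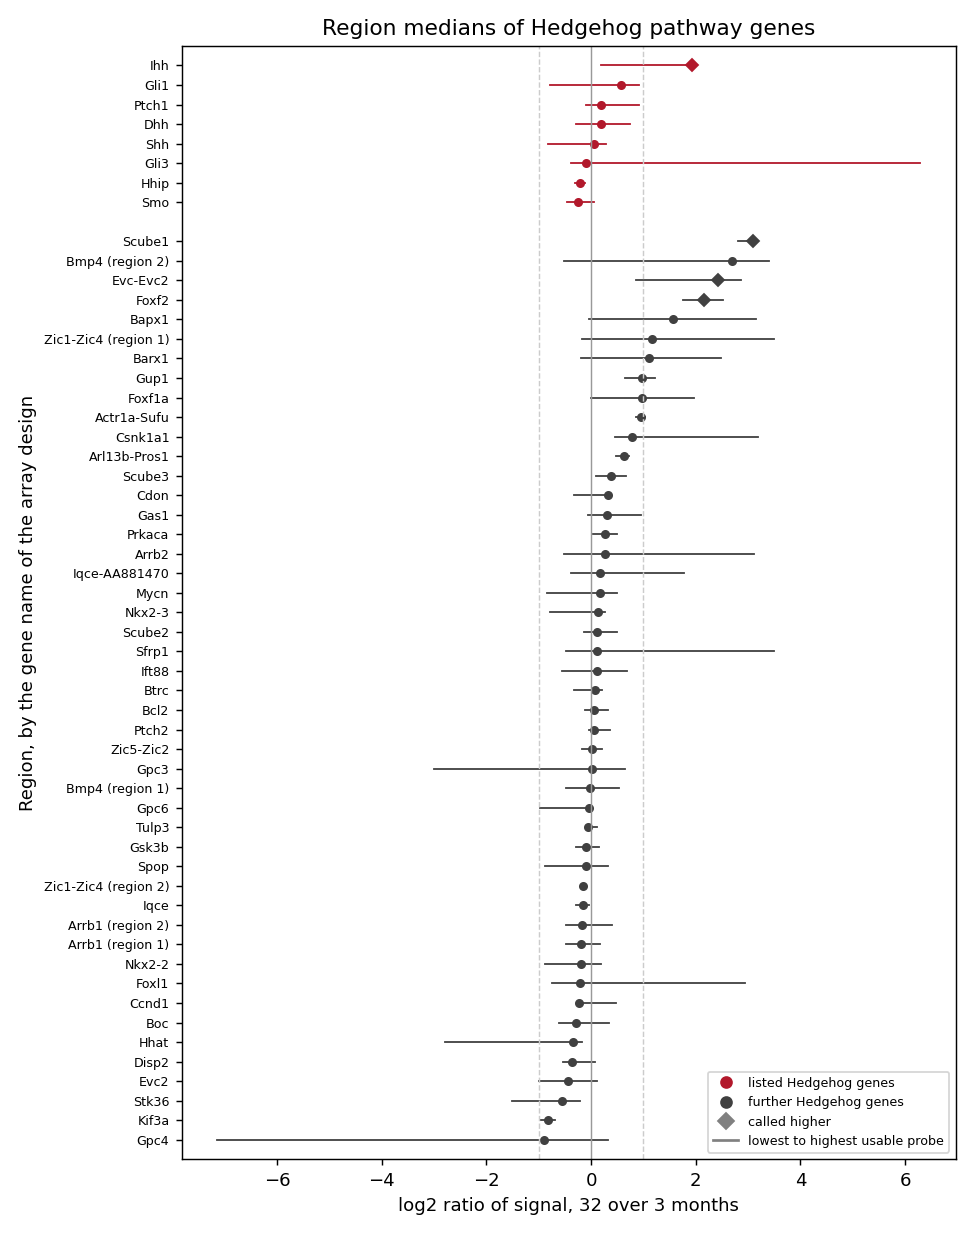
Median log2 ratio of 32-month over 3-month signal of each measured region (horizontal axis) for the listed Hedgehog genes (red) and the further genes (grey), named as in the array design, with lines from the lowest to the highest usable probe and diamonds for regions called higher. Ihh, Scube1, Evc-Evc2 and Foxf2 carry diamonds, and the lines of Gli3 and Gpc4 reach 6.29 and -7.14.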

How the data were processed

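Per the submitters' processing notes, the scanner software was Agilent Feature Extraction 9.1.3.1. The deposited intensity values used were processed signals, from which background had been removed with spatial detrending and linear dye scaling, per the file headers. The deposited log10 ratio served in 1 alternative. Both files of an array were identical, each holding both channels, and the authors' value table equalled the processed intensity in 100% of spots. No unmatched columns remained (0).

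Control spots and spots with an outlier flag were left out, and a probe well above background in 1 channel or both was usable. Centring subtracted the array median log2 ratio over all probes with a position (0.0044 and -0.1394). Neighbouring probes of 1 name at most 1000 bp apart formed a region, measured from 2 usable probes on. Alternatives used limma 3.58.1 (R 4.3.3) for normexp with an offset of 50 and for loess, and pandas 2.3.3 otherwise. Simulated data were used to test how regions are called. Log2 ratios have no p-value, since there is 1 sample per age. Signal over background and the number of arrays limit the precision.

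The members and the lists were chosen with earlier results of these data known. All members are named whatever their values; of the further genes, those called and the 3 highest and 3 lowest uncalled medians with at least 3 usable probes are named. Names were matched through synonyms of the RefSeq table (GRCm38.p6).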

Additional observations from a re-analysis of the deposited data

How the results depend on the processing

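The alternatives for regions were uncentred ratios, centring on usable probes (chosen after seeing the data), loess, normexp, the deposited log ratio, other probe filters, block medians, means over probes, a 500 bp gap and leaving out single probes. Under all of these 1 Hedgehog region, Ihh, was called higher and 0 lower, also at a call threshold of 0.6. The Gli3 median ran from -0.23 to 2.01, the highest with probe 3 or probe 5 left out, and its mean was 1.92, all without a call. Without probe 1 or 2 the Gli3 median was -0.19. Of the further genes, 8 were called higher after normexp and 8 at a threshold of 0.6, against 4 in the main setting. There were 6 after loess, with a 500 bp gap or with centring on usable probes, and 5 with means over probes. Counted over all regions and not over genes, the share called higher was 2.74% after normexp and 4.29% at a threshold of 0.6, against 2.01%. With means over probes 1 further gene was called lower (Hhat), with a 500 bp gap 1 (Gpc4) and at a threshold of 0.6 again 1 (Kif3a), against 0. The shares of all regions called lower in these settings were 0.716%, 0.743% and 2.1%, against 0.632%. Foxf1 and Nkx3-2, named here for this change, gained a call after loess, normexp or centring on usable probes, from medians of 0.98 and 1.56. Each region had only 2 usable probes, at 1.97 and -0.00 for Foxf1 and at 3.15 and -0.03 for Nkx3-2. Over all regions, higher calls made up 76.1% of calls, against 64.4% uncentred or with the deposited log ratio and 95.5% after normexp, when 421 regions were higher and 20 lower, against 309 and 97; the cause was not tested. With dim probes kept 56 were lower, and at a threshold of 0.6 there were 658 higher and 323 lower. Normexp moved the median of all regions to 0.11, against 0.01. No paired analysis was possible because there is 1 sample per age and array.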

Other observations

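Of the 102 regions on both arrays with 2 neighbouring probes at a log2 ratio of at least 3, 58 were called higher and 44 were not. Gli3 was among 17 of these 44 whose median stayed under 1, and among 3 whose median was below 0, with Kcnab1 at -0.20 and Prmt8 at -0.06, both named after their values were seen. Both of these, like Gli3, had 2 probes above 3, with highest values of 4.27 for Kcnab1 and 3.54 for Prmt8.

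The array neighbours of the Hedgehog regions within 30000 bp were read for context. Inhbe, which encodes a subunit of the activin family and lies 8784 bp from the Gli1 region, was called higher at 2.14 ± 1.12 over 8 probes. Inhbc, of the same family and 27663 bp away, had 1.46 ± 1.14 over 4 probes without a call. Arhgap9, at 17192 bp, had 0.72 ± 0.15 over 11 probes, all between 0.46 and 0.85. Mars, at 29337 bp from Gli1, had -0.13 ± 0.64 over 3 probes. Near Dhh, Rhebl1 at 16147 bp had -0.73 ± 0.81 over 4 probes and Lmbr1l at 18812 bp had 0.42 ± 0.61 over 3 probes, neither with a call. The neighbour of Ihh, named Ccdc108 in the design and 15551 bp away, had -0.18 ± 0.36 over 4 probes. No other named region lay within this distance of Gli3, Ptch1, Smo, Shh or Hhip.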
